A study of Homo sapiens with 24 samples.

Results

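The constitutive proteasome subunits are the 32 genes with PSMA, PSMB, PSMC and PSMD symbols that encode the standing parts of the 26S proteasome, taken by symbol from the 25341 named genes of the expression table and not by their values. They comprise 7 alpha and 7 beta genes of the 20S core (PSMA1 to PSMA7 and PSMB1 to PSMB7), 6 ATPase genes of the 19S cap (PSMC1 to PSMC6), and 12 further cap genes (PSMD1 to PSMD8 and PSMD11 to PSMD14), among which PSMD5 encodes an assembly chaperone of the cap and no standing part of it. All 32 were listed, and all 32 passed the filter on low values that left 15113 genes to test, so every count below runs over all members. The study sequenced RNA of 4 myeloma lines, with 3 libraries per group and 24 libraries in all. Cells of the siIRF4 groups were electroporated with a pool of siRNAs against IRF4, a transcription factor on which myeloma cells depend, and taken at 48 h. CTRL cells of the same lines are labelled as treated with DMSO at 0 h, with no control siRNA named, so that loss of IRF4, siRNA delivery, electroporation, DMSO and time cannot be told apart. MM1R and MM1S share a parent line, MM1R being the glucocorticoid-resistant derivative, and KMS-12-BM and KMS-12-PE were established from the bone marrow and the pleural effusion of the same case. All groups grew in RPMI medium with fetal bovine serum, and none carries a named allele. Replicates are not described as separate cultures, and a p-value then speaks of the spread among these libraries alone.

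The proteasome degrades proteins that carry ubiquitin chains. The 20S core is a barrel in which alpha rings gate the entry and beta rings hold the proteolytic sites, and the 19S cap binds ubiquitin, removes it, unfolds the substrate with its ring of ATPases and feeds it into the core. Plasma cells and myeloma cells make and secrete large amounts of immunoglobulin, and inhibitors of the core such as bortezomib, which acts mainly on the PSMB5 site, are a mainstay of myeloma treatment.

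Values are TPM (transcript abundances scaled to gene length and library total by the authors), and changes are differences of log2(TPM + 1) between group means, siIRF4 minus CTRL, with the SE from limma. Calls were made at an adjusted p under 0.05 (Benjamini-Hochberg over all 15113 tested genes). Whole reads recovered from the TPM values gave 17.3 to 27.4 M reads per library, and each member held between 746 and 17346 reads in a library. IRF4 itself fell in all 4 lines, on average to 291 TPM in MM1R (CTRL 380.3), 141 in MM1S (CTRL 283), 222 in KMS-12-BM (CTRL 361) and 155 in KMS-12-PE (CTRL 327). All 8 plasma cell markers checked were present at a mean of at least 1 TPM in every group. SLAMF7 and SDC1 were low in KMS-12-BM CTRL, at means of 1.76 and 6.05 TPM, against 597 and 738 TPM in MM1R CTRL. Markers of stromal cells (COL1A1, COL1A2, COL3A1, DCN and COL6A3) summed to 62.1 to 132 TPM in MM1S CTRL and 63.7 to 95.4 TPM in KMS-12-PE CTRL, with all 5 genes at a mean of at least 1 TPM, against 0.591 to 0.859 TPM in MM1R CTRL.

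After siIRF4 the proteasome subunits fell together in MM1R and MM1S, with smaller median changes and fewer members called in KMS-12-PE and KMS-12-BM. How far the 2 KMS-12 lines differed in this depended on the scaling, as given below. In MM1R 30 of 32 members were called lower and 0 higher, where 21.2% of all tested genes were called lower and 25.0% higher, and the median change of the members was -0.25 against 0.026 over all genes. In MM1S 31 of 32 were called lower and 0 higher, beside 21.1% lower and 29.1% higher among all genes, with medians of -0.29 and 0.045. In KMS-12-PE 21 of 32 were called lower and 0 higher, beside 22.2% and 15.9% among all genes, with medians of -0.13 and -0.022. KMS-12-BM had 8 of 32 called lower and 0 higher, beside 6.09% and 11.4% among all genes, with medians of -0.069 and 0.037. At an unadjusted p under 0.05 no member was higher in MM1R, MM1S or KMS-12-PE and 1 was higher in KMS-12-BM (PSMD5, 0.083). With voom on the recovered reads, no member was called higher in any of the 4 lines.

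Averaged over the 4 lines with equal weight, 31 of 32 members were called lower and 0 higher, beside 26.5% lower and 33.1% higher among all genes. The members' median was -0.19 and their range -0.33 to -0.044. The exception was PSMD5, the assembly chaperone, at -0.044 ± 0.020 (SE, limma adjusted p = 0.0621). At an unadjusted p under 0.05 it too was lower and no member was higher, and voom likewise called 31 lower and 0 higher. By line, 5 members were called lower in all 4 lines (PSMA2, PSMA5, PSMB6, PSMD1 and PSMD13), 18 in 3 lines, 7 in 2 lines and 2 in 1 line (PSMB5 in MM1S and PSMD5 in KMS-12-PE). These members are abundant transcripts, with a median CTRL level of 245 TPM against 15.8 TPM over all tested genes. Of all tested genes 74.7% lie below the lowest member. The RNA is from bulk cultures, in which fewer cells of a kind and less RNA per cell cannot be told apart.

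**Figure D1:**
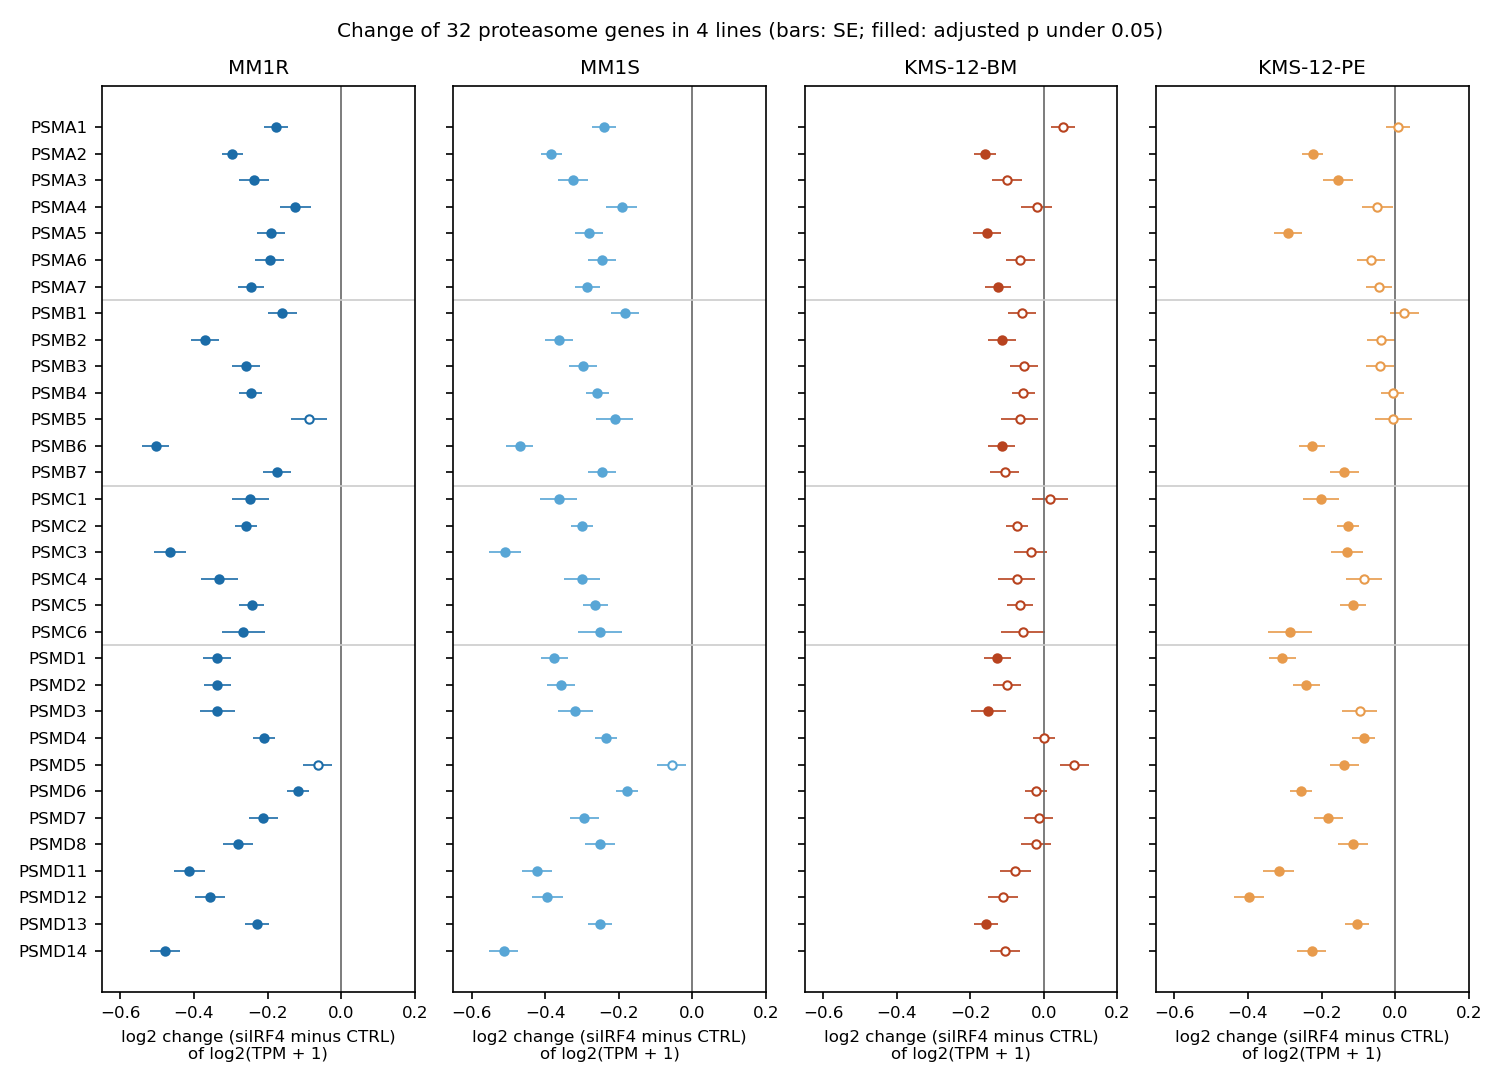
Log2 change (siIRF4 minus CTRL, horizontal axis) of the 32 proteasome genes (rows, grouped as PSMA, PSMB, PSMC and PSMD) in each of the 4 lines, with bars for the SE and filled points for an adjusted p under 0.05. All points of MM1R and MM1S lie to the left of 0 with 30 and 31 filled. In KMS-12-BM 28 of 32 points lie to the left of 0 with 8 filled, and in KMS-12-PE 30 with 21 filled.

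The KMS-12-BM count was the least stable of these. It was 13 when TPM values were rescaled by the median of ratios and 5 when KMS-12-BM was fitted alone. Without siIRF4 replicate 1 it was 2, and without siIRF4 replicate 2, CTRL replicate 1 or CTRL replicate 2 it was 5 each time. The KMS-12-PE count was 13 with voom on the recovered reads.

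Because the members moved together in the MM1 lines, the RefSeq sequences upstream of their starts were searched for motifs of factors that act on proteasome or IRF4 target genes. RefSeq windows of assembly GRCh38.p14 were found for 27 of 32 members, while the submitters' notes name hg19 for the expression values, so coordinates below belong to GRCh38.p14 only. The 250 bases before each start were searched on both strands. TGACNNNGC, the core of the antioxidant response element that the proteasome regulator NFE2L1 binds, was in 6 of 27 members (22.2%) and 13.2% of 27305 genes. CCAAT was in 14 of 27 (51.9% against 37.0%), and the ETS core CCGGAAG in 6 of 27 (22.2% against 10.2%). GGAA and GAAA with any 2 bases between them, the composite element that IRF4 binds with an ETS partner, was in 3 of 27 (PSMA2, PSMB3 and PSMC2; 11.1% against 2.99%). GAAA repeated after any 2 bases, the interferon-stimulated response element, was in 2 of 27 (PSMA4 and PSMB4; 7.41% against 3.71%). The last 2 motifs share most of their letters, and a match describes letters, not binding.

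The windows below are those of PSMA2, which was called lower in all 4 lines and carries the composite element; PSMB3, which carries the composite, antioxidant and CCAAT letters together; PSMD14, with the deepest average change; PSMD12, with the deepest change in KMS-12-PE; and PSMD5, which moved least. Each is printed along its own gene from 5′ to 3′, with matches to the searched motifs on either strand in capitals.
PSMA2, chr7:42932175-42932424, minus strand: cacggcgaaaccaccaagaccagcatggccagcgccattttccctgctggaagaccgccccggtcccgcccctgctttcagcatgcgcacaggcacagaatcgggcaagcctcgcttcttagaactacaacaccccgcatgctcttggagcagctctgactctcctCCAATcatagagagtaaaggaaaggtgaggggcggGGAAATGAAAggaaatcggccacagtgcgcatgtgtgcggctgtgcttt
PSMB3, chr17:38752491-38752740, plus strand: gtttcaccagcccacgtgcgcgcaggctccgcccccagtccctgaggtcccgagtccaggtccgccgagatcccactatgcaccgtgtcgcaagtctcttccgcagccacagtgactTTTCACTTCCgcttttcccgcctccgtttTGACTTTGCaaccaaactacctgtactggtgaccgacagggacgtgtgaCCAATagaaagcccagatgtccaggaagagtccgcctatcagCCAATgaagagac
PSMD14, chr2:161308175-161308424, plus strand: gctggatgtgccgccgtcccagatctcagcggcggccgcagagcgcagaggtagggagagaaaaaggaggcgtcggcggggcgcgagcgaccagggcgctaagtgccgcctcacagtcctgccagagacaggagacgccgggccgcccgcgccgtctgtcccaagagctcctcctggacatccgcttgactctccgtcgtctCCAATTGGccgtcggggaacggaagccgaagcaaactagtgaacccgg
PSMD12, chr17:67366578-67366827, minus strand: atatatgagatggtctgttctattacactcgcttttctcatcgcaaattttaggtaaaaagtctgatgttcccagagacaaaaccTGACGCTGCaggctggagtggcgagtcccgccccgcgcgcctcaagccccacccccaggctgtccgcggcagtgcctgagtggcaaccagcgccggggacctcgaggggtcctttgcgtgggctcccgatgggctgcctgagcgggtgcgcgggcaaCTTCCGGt
PSMD5, chr9:120842923-120843172, minus strand: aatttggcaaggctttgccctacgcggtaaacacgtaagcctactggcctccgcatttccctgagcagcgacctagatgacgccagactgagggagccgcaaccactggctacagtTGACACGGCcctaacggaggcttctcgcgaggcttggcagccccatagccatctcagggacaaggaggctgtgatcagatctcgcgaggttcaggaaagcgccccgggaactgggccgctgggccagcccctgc
The 6 members with the antioxidant core changed on average by -0.096 (PSMA4), -0.16 (PSMB3), -0.17 (PSMC5), -0.31 (PSMD12), -0.23 (PSMD3) and -0.044 (PSMD5). The 3 with the composite element changed by -0.27 (PSMA2), -0.16 (PSMB3) and -0.19 (PSMC2). PSMD14, whose window holds CCAAT letters alone of the searched motifs, changed by -0.33. Any link between a motif and a change was not tested.

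The alpha ring opens and closes the gate of the core. All 7 alpha genes were called lower in MM1R and in MM1S, 3 in KMS-12-BM (PSMA2, PSMA5 and PSMA7) and 3 in KMS-12-PE (PSMA2, PSMA3 and PSMA5). Their medians were -0.19, -0.28, -0.10 and -0.066 in MM1R, MM1S, KMS-12-BM and KMS-12-PE. PSMA2 had the largest average change of the ring, -0.27 ± 0.015 (SE), and PSMA1 the smallest, -0.089 ± 0.016.

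PSMA2 in CTRL was found at 383, 392 and 385 TPM in MM1S, 347, 344 and 349.6 TPM in MM1R, 649, 651 and 696 TPM in KMS-12-PE and 696, 690.0 and 699.6 TPM in KMS-12-BM. After siIRF4 it was found at 292, 296 and 299.7 TPM in MM1S, 274, 282 and 292 TPM in MM1R, 569.8, 564 and 574 TPM in KMS-12-PE and 608, 617 and 641 TPM in KMS-12-BM. The siIRF4 libraries lay below the CTRL libraries without overlap in all 4 lines. On the log2 scale PSMA2 differed by -0.38 ± 0.029 in MM1S, -0.30 ± 0.029 in MM1R, -0.22 ± 0.029 in KMS-12-PE and -0.16 ± 0.029 in KMS-12-BM (SE), and the limma adjusted p-values were 7.2e-10, 4.0e-08, 3.1e-06 and 4.9e-04.

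PSMA1 in CTRL was measured at 339.7, 343 and 323 TPM in MM1S, 308, 296 and 288 TPM in MM1R, 234, 228 and 237 TPM in KMS-12-PE and 256, 264 and 268 TPM in KMS-12-BM. After siIRF4 it was measured at 279.8, 291 and 279.7 TPM in MM1S, 257, 264 and 267 TPM in MM1R, 237, 229 and 236 TPM in KMS-12-PE and 268, 269.7 and 281 TPM in KMS-12-BM. The groups were apart in MM1R and MM1S, with siIRF4 the lower, and overlapped in both KMS-12 lines. Log2 changes of PSMA1 were -0.24 ± 0.032 in MM1S, -0.18 ± 0.032 in MM1R, 0.0073 ± 0.032 in KMS-12-PE and 0.053 ± 0.032 in KMS-12-BM (SE); limma gave adjusted p = 2.6e-06, 1.2e-04, 0.91 and 0.30 in that order. The change in KMS-12-PE was so near 0 that its sign turned when siIRF4 replicate 1 or CTRL replicate 2 was left out.

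PSMA5, another gate subunit and the alpha gene of lowest abundance, fell in KMS-12-BM from 75.0, 77.2 and 77.1 TPM to 65.0, 69.6 and 71.2 TPM. In KMS-12-PE it fell from 154, 153 and 167 TPM to 128, 129 and 129 TPM, a change of -0.29 ± 0.038 (SE, limma adjusted p = 3.1e-06) that was the deepest of the 14 core genes in that line. The groups did not overlap in either line.

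The beta ring holds the catalytic sites of PSMB5 (chymotrypsin-like), PSMB6 (caspase-like) and PSMB7 (trypsin-like), while PSMB1 to PSMB4 have no proteolytic activity. In MM1R 6 of 7 beta genes were called lower and in MM1S 7 of 7, against 2 in KMS-12-BM (PSMB2 and PSMB6) and 2 in KMS-12-PE (PSMB6 and PSMB7). The 3 catalytic genes did not change by the same amount: averaged over the 4 lines PSMB6 changed most among the beta genes (-0.33), and PSMB5, the drug target, stood with PSMB1 at the small end (-0.092 and -0.094). The order varied by line, and in KMS-12-BM PSMB2 and PSMB6 both changed by -0.11.

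PSMB6 in CTRL reached 409.5, 415 and 418 TPM in MM1S, 482, 511 and 492 TPM in MM1R, 227, 236 and 231 TPM in KMS-12-PE and 243, 246 and 249 TPM in KMS-12-BM. After siIRF4 it reached 289, 300.4 and 307 TPM in MM1S, 328, 352 and 367 TPM in MM1R, 201, 201 and 191 TPM in KMS-12-PE and 224, 234 and 224 TPM in KMS-12-BM. All siIRF4 libraries were lower than the CTRL libraries of their line, and the loss of mean TPM was 29.5% in MM1R, 27.8% in MM1S, 14.5% in KMS-12-PE and 7.62% in KMS-12-BM. PSMB6 changed by -0.47 ± 0.036 in MM1S, -0.50 ± 0.036 in MM1R, -0.23 ± 0.036 in KMS-12-PE and -0.11 ± 0.036 in KMS-12-BM (SE) on the log2 scale, at limma adjusted p = 9.0e-10, 5.2e-10, 4.0e-05 and 0.0322 respectively.

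PSMB5 in CTRL gave 71.7, 73.1 and 77.6 TPM in MM1S, 80.8, 72.9 and 78.8 TPM in MM1R, 128, 132 and 122 TPM in KMS-12-PE and 169, 172 and 174 TPM in KMS-12-BM. After siIRF4 it gave 60.8, 67.6 and 63.3 TPM in MM1S, 76.7, 71.7 and 70.3 TPM in MM1R, 125, 120.3 and 135 TPM in KMS-12-PE and 159.7, 165 and 168 TPM in KMS-12-BM. The groups overlapped in MM1R and KMS-12-PE, and siIRF4 lay below CTRL in MM1S and KMS-12-BM. On the log2 scale PSMB5 differed by -0.21 ± 0.050 in MM1S, -0.087 ± 0.050 in MM1R, -0.0049 ± 0.050 in KMS-12-PE and -0.065 ± 0.050 in KMS-12-BM (SE), and the limma adjusted p-values were 0.00124, 0.17, 0.97 and 0.42. MM1S alone passed the threshold, with a loss of 13.8% of mean TPM, and no difference of the PSMB5 change between lines was called. In KMS-12-PE the sign of the change turned with the scaling, being 0.016 under median-of-ratios scaling and 0.040 with voom.

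PSMB7 in CTRL came to 265, 296 and 269.6 TPM in MM1S, 340.3, 346 and 349 TPM in MM1R, 630.4, 619 and 666 TPM in KMS-12-PE and 673, 699 and 681 TPM in KMS-12-BM. After siIRF4 it came to 227, 236 and 236 TPM in MM1S, 298, 315 and 304 TPM in MM1R, 585, 582 and 573 TPM in KMS-12-PE and 609, 641 and 658 TPM in KMS-12-BM. No siIRF4 library reached the CTRL libraries of its line. Log2 changes of PSMB7 were -0.25 ± 0.038 in MM1S, -0.17 ± 0.038 in MM1R, -0.14 ± 0.038 in KMS-12-PE and -0.11 ± 0.038 in KMS-12-BM (SE); limma gave adjusted p = 1.6e-05, 7.6e-04, 0.00704 and 0.0596 in that order. The KMS-12-BM change therefore missed the threshold even though its groups were apart.

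**Figure D2:**
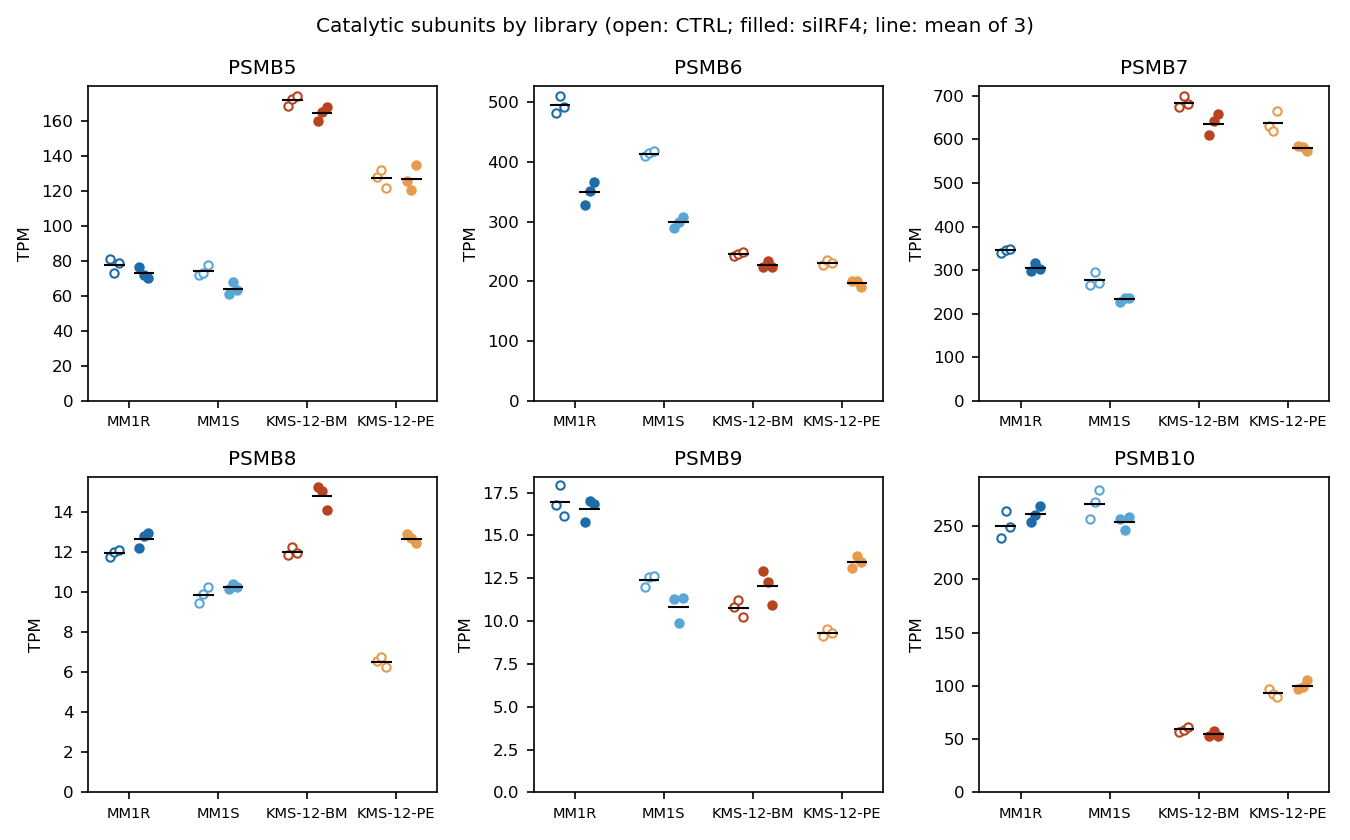
TPM (vertical axes, each from 0) of the constitutive catalytic genes PSMB5, PSMB6 and PSMB7 and of their immunoproteasome counterparts PSMB8, PSMB9 and PSMB10 in each library of the 4 lines, open for CTRL and filled for siIRF4, with a line at the mean of 3. PSMB6 lies lower after siIRF4 in every line, whereas PSMB8 in KMS-12-PE goes from a mean of 6.52 to 12.7 TPM.

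The 6 PSMC genes encode the ATPase ring that unfolds substrates. All 6 were called lower in MM1R and in MM1S, 5 in KMS-12-PE (not PSMC4) and 0 in KMS-12-BM, where their changes ran from -0.074 to 0.017. PSMC3 had the largest average change of the ring, -0.29 ± 0.022 (SE), and PSMC5 the smallest, -0.17 ± 0.017.

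PSMC3 in CTRL was counted at 299.9, 300.4 and 304 TPM in MM1S, 338, 356 and 356 TPM in MM1R, 297, 316 and 303 TPM in KMS-12-PE and 337, 343 and 330.1 TPM in KMS-12-BM. After siIRF4 it was counted at 204, 213 and 217 TPM in MM1S, 232, 258 and 272 TPM in MM1R, 272, 282 and 282 TPM in KMS-12-PE and 316, 336 and 334 TPM in KMS-12-BM. The groups were apart in MM1R, MM1S and KMS-12-PE and overlapped in KMS-12-BM. PSMC3 changed by -0.51 ± 0.044 in MM1S, -0.46 ± 0.044 in MM1R, -0.13 ± 0.044 in KMS-12-PE and -0.036 ± 0.044 in KMS-12-BM (SE) on the log2 scale, at limma adjusted p = 4.0e-09, 2.1e-08, 0.0221 and 0.64 respectively. The mean TPM fell by 27.5% in MM1R and by 29.8% in MM1S, from CTRL levels that were among the most alike of all members between the 4 lines.

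PSMC5 in CTRL lay at 254, 255 and 246 TPM in MM1S, 326, 322 and 332 TPM in MM1R, 221, 236 and 233 TPM in KMS-12-PE and 149, 139 and 139 TPM in KMS-12-BM. After siIRF4 it lay at 209, 213 and 207 TPM in MM1S, 265, 279.9 and 282 TPM in MM1R, 206, 216 and 215 TPM in KMS-12-PE and 133, 140.3 and 135 TPM in KMS-12-BM. Again KMS-12-BM was the line in which the groups overlapped. On the log2 scale PSMC5 differed by -0.26 ± 0.035 in MM1S, -0.24 ± 0.035 in MM1R, -0.11 ± 0.035 in KMS-12-PE and -0.064 ± 0.035 in KMS-12-BM (SE), and the limma adjusted p-values were 1.9e-06, 6.9e-06, 0.0128 and 0.23.

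The 12 PSMD genes include the scaffold subunits PSMD1 and PSMD2, the ubiquitin receptor PSMD4, the deubiquitinase PSMD14 with its partner PSMD7, the lid subunits PSMD3, PSMD6, PSMD8, PSMD11, PSMD12 and PSMD13, and the chaperone PSMD5. In both MM1R and MM1S 11 of 12 were called lower, with PSMD5 the exception each time, and in KMS-12-PE 11 of 12, with PSMD3 the exception. In KMS-12-BM 3 were called lower (PSMD1, PSMD3 and PSMD13).

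PSMD14 in CTRL amounted to 271, 257 and 246 TPM in MM1S, 266, 261 and 261 TPM in MM1R, 309, 320.3 and 320.0 TPM in KMS-12-PE and 135, 136 and 133 TPM in KMS-12-BM. After siIRF4 it amounted to 183, 181 and 177 TPM in MM1S, 178, 191 and 196 TPM in MM1R, 276, 269 and 266 TPM in KMS-12-PE and 117, 129 and 128 TPM in KMS-12-BM. In every line the siIRF4 libraries were below the CTRL libraries. Log2 changes of PSMD14 were -0.51 ± 0.040 in MM1S, -0.48 ± 0.040 in MM1R, -0.23 ± 0.040 in KMS-12-PE and -0.11 ± 0.040 in KMS-12-BM (SE); limma gave adjusted p = 1.1e-09, 4.2e-09, 1.2e-04 and 0.0738 in that order. Its average change of -0.33 ± 0.020 (SE) was the deepest of the 32 members.

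PSMD5 in CTRL was low, at 43.6, 39.8 and 41.1 TPM in MM1S, 32.5, 30.0 and 31.2 TPM in MM1R, 78.1, 75.7 and 75.0 TPM in KMS-12-PE and 41.4, 41.2 and 43.4 TPM in KMS-12-BM. After siIRF4 it was at 40.2, 40.5 and 38.9 TPM in MM1S, 30.7, 29.0 and 29.8 TPM in MM1R, 69.0, 69.6 and 69.1 TPM in KMS-12-PE and 43.9, 44.0 and 45.7 TPM in KMS-12-BM. The groups overlapped in MM1R and MM1S, siIRF4 lay above CTRL in KMS-12-BM and below it in KMS-12-PE. PSMD5 changed by -0.056 ± 0.039 in MM1S, -0.063 ± 0.039 in MM1R, -0.14 ± 0.039 in KMS-12-PE and 0.083 ± 0.039 in KMS-12-BM (SE) on the log2 scale, at limma adjusted p = 0.25, 0.21, 0.00819 and 0.16 respectively.

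KMS-12-PE had its smallest p-values in 3 cap genes. PSMD12 fell there from 234, 236 and 242 TPM to 179, 179 and 182 TPM, a change of -0.40 ± 0.041 (SE, limma adjusted p = 1.4e-07). PSMD6 fell from 169, 171 and 175 TPM to 145, 146 and 139.6 TPM (-0.26 ± 0.031, adjusted p = 1.0e-06). PSMD1 fell from 251, 255 and 250.1 TPM to 206, 201 and 204 TPM (-0.31 ± 0.037, adjusted p = 1.2e-06). None of the 3 had overlapping groups. In KMS-12-BM the smallest p-values were those of PSMA2, PSMD13 and PSMA5, and PSMD13 went there from 360.4, 375 and 366 TPM to 322, 331 and 336 TPM (-0.16 ± 0.033, adjusted p = 0.00175).

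In KMS-12-PE markers of other cell types moved with these results, in both directions. The stromal markers summed to 63.7 to 95.4 TPM in CTRL and 21.2 to 30.0 TPM in siIRF4, and 5 of 5 were called lower. Of the 4 myeloid markers S100A8 (62.3 to 19.9 TPM, means of CTRL and siIRF4) and S100A9 (99.5 to 23.95 TPM) were called lower, whereas LYZ and CD14 lay below 1 TPM in both groups and CD14 went from 0.496 to 0.699 TPM. The keratin KRT5 was called lower (55.8 to 17.4 TPM, -1.65) while the epithelial claudin CLDN4 was called higher (0.662 to 1.25 TPM). EPCAM, the most abundant epithelial marker there, was not called (129 to 139 TPM). The T and NK cell markers CD3E (9.51 to 26.5 TPM, 1.39) and NKG7 (0.478 to 1.33 TPM) were called higher, with CD3D listed at 0 in 5 of the 6 libraries. The part of these markers in the KMS-12-PE changes was not tested.

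In MM1R the stromal sum was 0.591 to 0.859 TPM in CTRL and 0.608 to 0.747 TPM in siIRF4. Of the myeloid markers S100A9 alone was above a mean of 1 TPM there and rose (24.8 to 94.7 TPM), with S100A8 listed at 0 in all 6 libraries. The epithelial EPCAM, low in MM1R, was called lower (3.18 to 2.25 TPM). The MM1S stromal sums were 62.1 to 132 TPM and 68.9 to 90.9 TPM. In MM1S S100A8 and S100A9 had overlapping groups and were not called, KRT5 was called lower (50.9 to 34.5 TPM, with overlap), and the stromal DCN (19.2 to 28.0 TPM) and CD3E (5.01 to 9.26 TPM) were called higher. In KMS-12-BM the stromal sum was 65.2 to 70.3 TPM and 40.5 to 42.0 TPM, with 1 of 5 markers (COL6A3, called lower) at a mean of at least 1 TPM, and no myeloid marker reached that mean. Its epithelial markers EPCAM (146 to 152 TPM) and KRT8 (66.7 to 69.3 TPM) were abundant and not called. The erythroid sum in CTRL was 21.2 to 26.2 TPM in KMS-12-BM, 23.9 to 30.1 in MM1R, 8.46 to 12.8 in MM1S and 0.177 to 1.23 in KMS-12-PE. It was mostly HBA1 in KMS-12-BM (mean 20.1 TPM) and HBB in MM1R (25.9 TPM) and MM1S (10.7 TPM). After siIRF4 HBA2 was called higher in KMS-12-BM (3.13 to 5.57 TPM) and HBB lower in MM1S (10.7 to 6.03 TPM). No erythroid marker was called in MM1R or KMS-12-PE.

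Core and cap medians lay close together in MM1R, MM1S and KMS-12-BM, and further apart in KMS-12-PE. The median change of the 14 core genes and of the 18 PSMC and PSMD genes was -0.22 and -0.27 in MM1R, -0.27 and -0.30 in MM1S, and -0.083 and -0.068 in KMS-12-BM. In KMS-12-PE it was -0.047 for the core, with 5 of 14 called lower, and -0.16 for the cap genes, with 16 of 18 called lower. The core median there was -0.025 with median-of-ratios scaling and -0.00093 with voom, and the core median lay above the cap median by 0.11 to 0.12 in each. The summed TPM of the core genes in KMS-12-PE was 6345 to 6652 in CTRL and 6128 to 6166 in siIRF4, and that of the cap genes 4128 to 4238 and 3681 to 3728. Neither pair of ranges overlaps. The mean core sum fell by 15.6%, 17.8%, 5.44% and 4.86% in MM1R, MM1S, KMS-12-BM and KMS-12-PE, and the mean cap sum by 18.6%, 19.99%, 4.47% and 11.8%. The ratio of core to cap TPM in KMS-12-PE went from 1.50 to 1.58 in CTRL to 1.65 to 1.67 in siIRF4, and in MM1R from 1.19 to 1.23 to 1.25 to 1.27, both without overlap. In MM1S and KMS-12-BM the groups overlapped. These sums and medians are descriptions of members chosen with results known and carry no test.

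**Figure D3:**
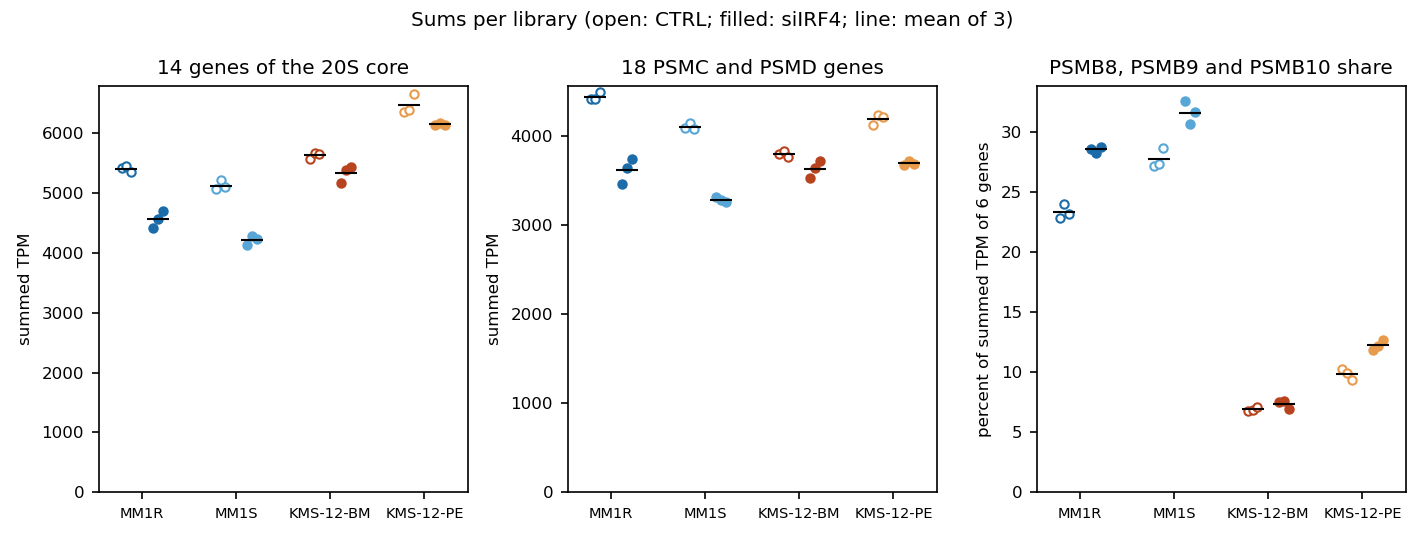
Summed TPM (vertical axes from 0) of the 14 core genes and of the 18 PSMC and PSMD genes per library, and the percent of the summed TPM of the 6 catalytic genes that is PSMB8, PSMB9 and PSMB10, open for CTRL and filled for siIRF4, with a line at the mean of 3. In MM1R and MM1S both sums drop by 15.6% to 19.99%, and in KMS-12-PE the cap sum drops by 11.8% against 4.86% for the core.

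The changes were then compared between lines by testing the difference of the effects. Between MM1R and MM1S no member was called in either direction, where 1.14% of all genes were called higher and 1.33% lower. At an unadjusted p under 0.05 there was 1 (PSMA2, 0.088 ± 0.041), and voom called 0 with 0 at an unadjusted p under 0.05. Across the 32 genes the changes in MM1R and MM1S correlated at r = 0.924, and the other pairs of lines at r between 0.278 and 0.466. These are descriptions over genes that share libraries within a line.

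The MM1 lines and the KMS-12 lines differed. For 26 of 32 members the mean change of the MM1 lines was lower than that of the KMS-12 lines, beside 20% of all genes, and for 0 it was higher, beside 25.0%. No member was higher at an unadjusted p under 0.05, and voom called 28 lower and 0 higher. The largest differences were those of PSMC3 (-0.40 ± 0.044, SE, adjusted p = 1.6e-07), PSMD14 (-0.33 ± 0.040, adjusted p = 8.5e-07) and PSMB6 (-0.32 ± 0.036, adjusted p = 3.5e-07). The 6 members not called were PSMA5, PSMB5, PSMB7, PSMC6, PSMD5 and PSMD6.

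Within the KMS-12 lines, the change in KMS-12-BM was higher, that is less negative, than in KMS-12-PE for 7 members, beside 15.9% of all genes, and lower for 0, beside 7.11%. All 7 encode cap proteins or the cap chaperone: PSMC1, PSMD1, PSMD5, PSMD6, PSMD7, PSMD11 and PSMD12. PSMD12 differed by 0.29 ± 0.058 (SE, adjusted p = 0.00123), PSMD11 by 0.24 ± 0.059 (adjusted p = 0.00552) and PSMD6 by 0.23 ± 0.043 (adjusted p = 5.3e-04). The median difference was 0.016 over the core genes and 0.13 over the PSMC and PSMD genes, beside 0.063 over all genes. Over all 32 members the median difference was 0.061, and it was -0.00070 with median-of-ratios scaling and 0.0097 with voom. The count was 3 under median-of-ratios scaling and 4 with voom, and at an unadjusted p under 0.05 it was 0 lower with limma and 3 lower with voom. A share of 7 in 32 lies near the share of all genes called in that direction.

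**Figure D4:**
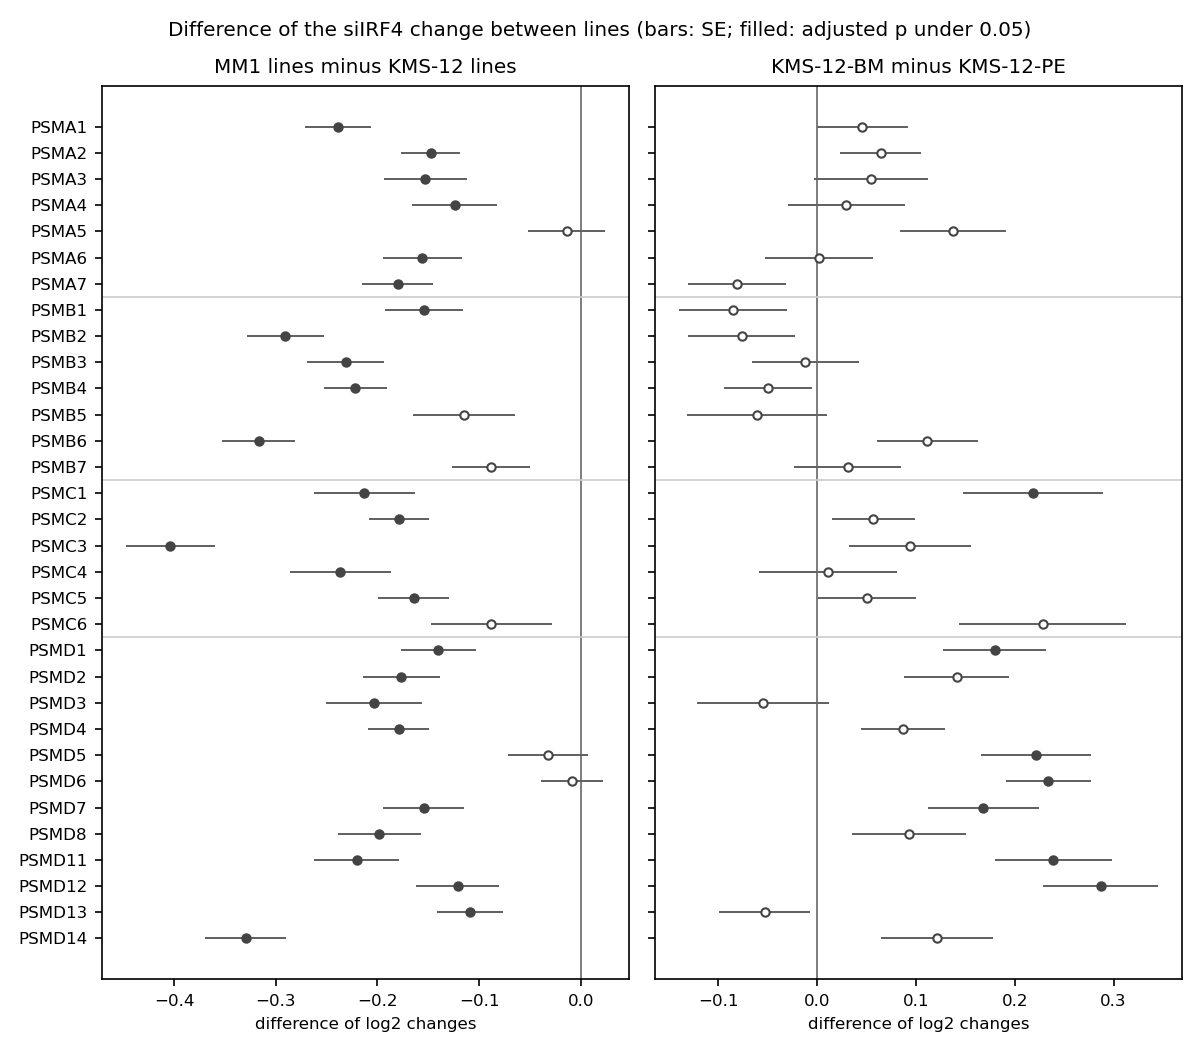
Difference of the log2 change between the mean of the MM1 lines and the mean of the KMS-12 lines (left) and between KMS-12-BM and KMS-12-PE (right) for the 32 genes (rows), with bars for the SE and filled points for an adjusted p under 0.05. On the left 26 points are filled and all lie below 0. On the right the 7 filled points are PSMC and PSMD genes and lie above 0.

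In CTRL the lines already carried different amounts of these transcripts. Over the 4 CTRL means PSMB4 was the most abundant member with 1014 TPM, followed by PSMA7 with 657 TPM and PSMB3 with 585 TPM. PSMA5 with 87.4 TPM and PSMD5 with 47.8 TPM were the least abundant. The highest line had 3.37 times the TPM of the lowest for PSMD12 and 3.00 times for PSMA5, against 1.16 times for PSMC3, the most even member. The core sum exceeded the cap sum in every library, and the mean CTRL ratio was 1.21 in MM1R, 1.25 in MM1S, 1.54 in KMS-12-PE and 1.48 in KMS-12-BM.

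**Figure D5:**
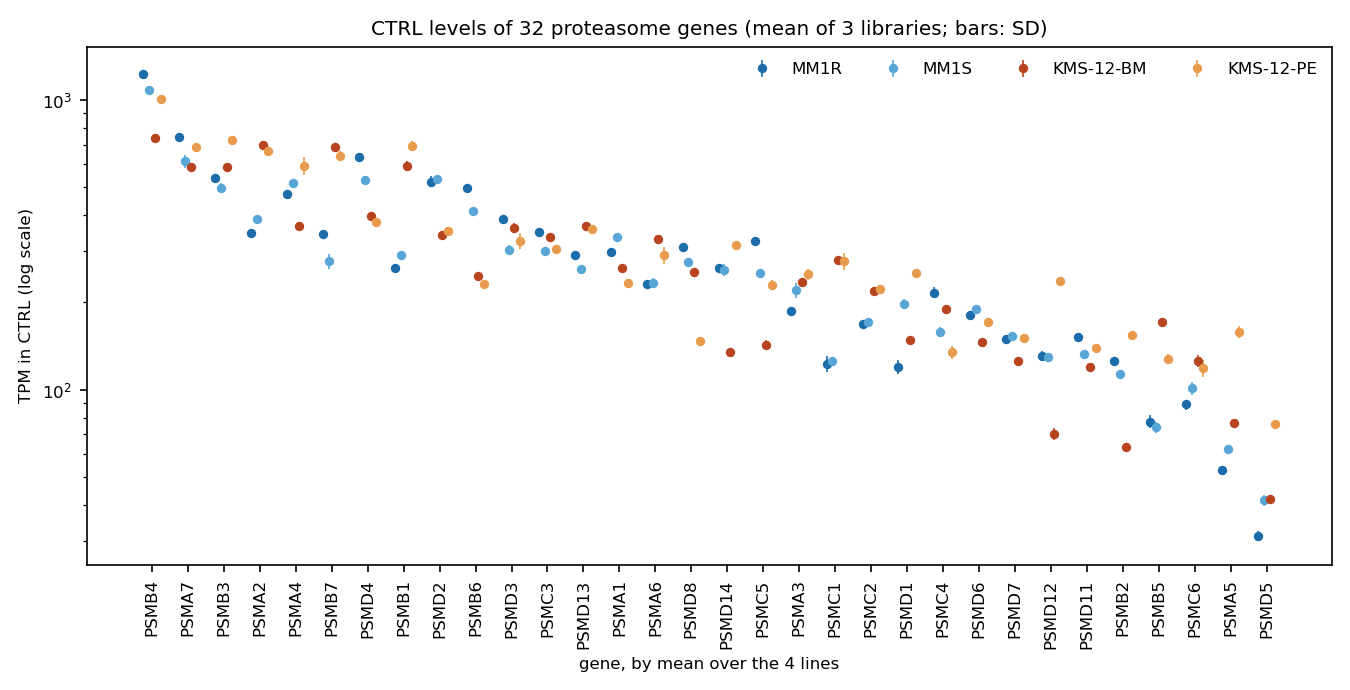
TPM in CTRL (log scale, mean of 3 libraries with bars for the SD) of the 32 genes, ordered by their mean over the 4 lines. PSMB4 stands highest with 1014 TPM and PSMD5 lowest with 47.8 TPM, and PSMD12 and PSMA5 spread most between lines.

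Between CTRL of the MM1 lines and CTRL of the KMS-12 lines 15 members were higher and 14 lower in MM1, beside 40.4% and 44.8% of all genes, shares near those of the members. Among the beta genes PSMB6 had 495 ± 14.8 and 414 ± 4.29 TPM in MM1R and MM1S (mean ± SD, n = 3) against 232 ± 4.45 and 246 ± 3.28 TPM in KMS-12-PE and KMS-12-BM, a difference of 0.92. PSMB7 had 345 ± 4.28 and 277 ± 16.7 against 638 ± 24.2 and 684 ± 13.0 TPM, a difference of -1.09. PSMB5 was likewise lower in the MM1 lines (-0.95), and so was PSMB1 (-1.21), while in the cap PSMC5 (0.66) and PSMD4 (0.58) were higher. For PSMB1, PSMB5, PSMB6, PSMB7, PSMC5 and PSMD4 the MM1 libraries did not overlap the KMS-12 libraries.

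KMS-12-BM and KMS-12-PE differed in CTRL for 26 members, 10 higher and 16 lower in KMS-12-BM, beside 37.3% and 40.0% of all genes. Most tested genes thus differed between these lines as well, and the count does not set the members apart. The number higher was 7 to 9 with each library left out, 8 with a prior without trend and 13 with voom. The number lower was 15 to 16, 15 and 15 in the same order. PSMD12 had 66.7, 73.7 and 71.0 TPM in KMS-12-BM and 234, 236 and 242 TPM in KMS-12-PE, a difference of -1.74 ± 0.041 (SE, limma adjusted p = 5.8e-20). PSMB2 (-1.27) and PSMD14 (-1.23) were lower in KMS-12-BM too, and PSMD8 (0.78), PSMC4 (0.50) and PSMB5 (0.43) were higher. Each of these had groups that did not overlap.

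CTRL of MM1R and MM1S differed for 23 members, 14 higher and 9 lower in MM1R, beside 29.7% and 27.6% of all genes. PSMD1 was the furthest apart, with 126, 113 and 121 TPM in MM1R and 205, 196 and 191 TPM in MM1S (-0.72 ± 0.037, SE, limma adjusted p = 1.2e-12). PSMD5 (-0.40) and PSMA5 (-0.24) were lower in MM1R, and PSMC4 (0.45), PSMC5 (0.37) and PSMD4 (0.27) higher, all without overlap.

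The inducible counterparts of the catalytic subunits, PSMB8, PSMB9 and PSMB10, form the immunoproteasome, and PSME1 and PSME2 encode its activator. Unlike the constitutive genes, PSMB8 rose in both KMS-12 lines. In KMS-12-PE it went from 6.55, 6.77 and 6.24 TPM to 12.9, 12.7 and 12.4 TPM (0.86 ± 0.046, SE, limma adjusted p = 4.9e-12), and in KMS-12-BM from 11.8, 12.2 and 11.9 TPM to 15.2, 15.0 and 14.1 TPM (0.28 ± 0.046, adjusted p = 1.9e-04), with no overlap in either. The PSMB8 change was 0.076 in MM1R and 0.053 in MM1S and was not called there, and the difference between MM1 and KMS-12 lines was -0.51 ± 0.046 (adjusted p = 1.5e-08). PSMB9 rose in KMS-12-PE (0.49) and fell in MM1S (-0.18). PSME1 rose in MM1R (0.11) and KMS-12-PE (0.20), and PSME2 fell in all 4 lines (-0.17, -0.28, -0.13 and -0.12).

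PSMB10 was far more abundant in the MM1 lines, with CTRL means of 250.4 and 271 TPM in MM1R and MM1S against 93.1 and 59.1 TPM in KMS-12-PE and KMS-12-BM, and it was not called after siIRF4 in any line. The share of PSMB8, PSMB9 and PSMB10 in the summed TPM of the 6 catalytic genes went from 22.8 to 23.99% to 28.2 to 28.8% in MM1R, from 27.1 to 28.6% to 30.6 to 32.5% in MM1S and from 9.38 to 10.2% to 11.9 to 12.7% in KMS-12-PE, without overlap. In the MM1 lines the share moved with the constitutive genes: the sum of PSMB5, PSMB6 and PSMB7 fell by 20.7% in MM1R and 22.1% in MM1S, while the sum of PSMB8, PSMB9 and PSMB10 had overlapping groups, with means of 279 and 290.3 TPM in MM1R and 293 and 275 TPM in MM1S (CTRL, then siIRF4). In KMS-12-PE the constitutive sum fell by 9.28% and the inducible sum went from 109 to 126 TPM without overlap. The share in KMS-12-BM was 6.80 to 7.07% and 6.92 to 7.57%, and the groups overlapped.

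Other genes of the pathway were taken from lists chosen by function. Among 10 further cap and assembly genes 8 fell on average and 0 rose, with a median of -0.11, beside 26.5% lower and 33.1% higher among all genes. By line 7 of 10 were called lower in MM1R and 8 in MM1S, against 2 each in KMS-12-PE and KMS-12-BM. Among all genes 21.2%, 21.1%, 22.2% and 6.09% were called lower in MM1R, MM1S, KMS-12-PE and KMS-12-BM. Those that fell on average included POMP, the maturation factor of the core (-0.24 ± 0.024, SE), the core chaperone PSMG1 (-0.28 ± 0.022) and the ubiquitin receptor ADRM1 (-0.21 ± 0.023), and POMP was called lower in all 4 lines. Of 9 associated receptors and enzymes 8 fell on average and 0 rose (median -0.16), beside the same 26.5% and 33.1% of all genes. The deubiquitinases USP14 (-0.24 ± 0.024) and UCHL5 (-0.25 ± 0.021) were among the 8. Of these 9 genes, 9 were called lower in MM1R, 7 in MM1S, 5 in KMS-12-PE and 0 in KMS-12-BM. The shares of all genes by line are those given above. Of 3 other activators and inhibitors 2 fell on average, PSME3 (-0.10) and PSME4 (-0.10), beside 26.5% of all genes. PSMF1 was not called on average (0.038) and was called higher in MM1S (0.14). Of 4 ubiquitin genes 3 rose on average and 0 fell (median 0.075), beside 33.1% and 26.5% of all genes. Called higher by line were 3 in MM1R, 2 in MM1S, 3 in KMS-12-PE and 0 in KMS-12-BM, beside 25.0%, 29.1%, 15.9% and 11.4% of all genes. In MM1S 1 was called lower.

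Of the 5 genes that control subunit transcription 4 fell on average, beside the same 26.5% of all genes: NFE2L1, the factor that raises proteasome genes when proteolysis is impaired (-0.094 ± 0.024), its protease DDI2 (-0.16), its deglycosylase NGLY1 (-0.079) and the extraction ATPase VCP (-0.16). Called lower by line were 1 in MM1R, 2 in MM1S, 4 in KMS-12-PE and 0 in KMS-12-BM. The shares of all genes called lower were 21.2%, 21.1%, 22.2% and 6.09% in that order. DDI2 was called in KMS-12-PE alone (-0.46) and went from 14.9 to 16.1 TPM in MM1S, where it was not called. On average the related factor NFE2L2 rose by 0.055. NFE2L1 was called in KMS-12-PE (-0.16) and not in MM1R (-0.039), MM1S (-0.10) or KMS-12-BM (-0.081).

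Some of these transcripts cannot be assigned with certainty, since the strand setting of the counting is not given in the sources used here. By RefSeq 13 of 32 members overlap another gene, as PSMC5 does FTSJ3, PSMC1 does NRDE2 and PSMA3 and PSMD6 do antisense genes. Named pseudogenes exist for 18 members, most of all for PSMC1 with 13, and reads shared with such copies could have been counted for either.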

How the data were processed

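Total RNA of 24 libraries was sequenced. The submitters' processing notes give hg19 as the build and name STAR, featureCounts, FastQC and MultiQC, without versions. The deposited values are TPM made by the authors, with the gene models behind them not given in the sources used here. Of 25370 listed rows, 28 with calendar dates in place of symbols and 1 without a name were dropped. The TPM steps gave back whole reads for 20484 genes (tolerance 0.02 reads, a value in at least 6 libraries) holding at least 99.96% of each library's TPM; precision at 17.3 to 27.4 M reads per library covers counting error only. No 2 replicates were copies (lowest chi-square per degree of freedom 2.14).

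Genes with at least 1 TPM in at least 3 libraries were tested with limma 3.58.1 (R 4.3.3) on log2(TPM + 1), in 1 fit of 8 group means with a trended, robust prior, two-sided, with Benjamini-Hochberg adjustment over 15113 genes in each of 11 comparisons, after a check on simulated data. Tables and plots used Python 3.11.15, numpy 2.4.6, pandas 2.3.3 and matplotlib 3.10.9. The members, gene lists and tests were chosen with earlier results of these data known. Values in every library are given for PSMB5, PSMB6, PSMB7 and for the members of each class with the largest and smallest average change, and up to 3 members per direction with the smallest p are named in each comparison; others named were chosen by class or after their values were seen. Some genes of the pathway lists are not reported here. Alternatives changed the pseudocount (0.1), the filter (none, or a mean TPM of 5 or more), the scaling (median of ratios), the prior (no trend), the block (replicate number) or the samples fitted (separate fits, each library left out) and, added after seeing the data, voom on the recovered reads.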

Additional observations from a re-analysis of the deposited data

Results flagged for a closer look

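The change after siIRF4 differed between the MM1 lines and the KMS-12 lines, by a limma test of the difference itself, for 26 members, each with a lower mean change over the 2 MM1 lines than over the 2 KMS-12 lines. PSMD12 is among them, although its KMS-12-PE change (-0.40) was as deep as those in MM1R (-0.36) and MM1S (-0.39), against -0.11 in KMS-12-BM. PSMC1, PSMD1, PSMD7 and PSMD11 are among them too. In that order they changed by -0.20, -0.31, -0.18 and -0.32 in KMS-12-PE, against 0.017, -0.13, -0.014 and -0.077 in KMS-12-BM. In MM1R they changed by -0.25, -0.34, -0.21 and -0.41, and in MM1S by -0.36, -0.38, -0.29 and -0.42. Differences of log2 changes among the alpha genes were those of PSMA1 (-0.24), PSMA7 (-0.18), PSMA6 (-0.16), PSMA3 (-0.15), PSMA2 (-0.15) and PSMA4 (-0.12). The beta genes were PSMB6 (-0.32), PSMB2 (-0.29), PSMB3 (-0.23), PSMB4 (-0.22) and PSMB1 (-0.15). The ATPase genes were PSMC3 (-0.40), PSMC4 (-0.24), PSMC1 (-0.21), PSMC2 (-0.18) and PSMC5 (-0.16). The other cap genes were PSMD14 (-0.33), PSMD11 (-0.22), PSMD3 (-0.20), PSMD8 (-0.20), PSMD4 (-0.18), PSMD2 (-0.18), PSMD7 (-0.15), PSMD1 (-0.14), PSMD12 (-0.12) and PSMD13 (-0.11). Over all tested genes 20% differed in this direction.

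The change also differed between KMS-12-BM and KMS-12-PE for 7 members, with the higher value in KMS-12-BM: PSMD7 (0.17), PSMD1 (0.18), PSMC1 (0.22), PSMD5 (0.22), PSMD6 (0.23), PSMD11 (0.24) and PSMD12 (0.29). PSMD5 lay on opposite sides of 0, at 0.083 in KMS-12-BM (not called) and -0.14 in KMS-12-PE. Over all tested genes 15.9% differed in this direction, a share near that of 7 in 32, and the count was 3 with median-of-ratios scaling. Stromal, myeloid, keratin and T cell markers moved in KMS-12-PE, and their part in these differences was not tested.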

How the results depend on the processing

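The members called lower after siIRF4 stayed within 29 to 30 in MM1R, at 31 in MM1S and within 31 to 32 on average, and 0 were called higher, under all alternatives run. The KMS-12-BM count of 8 was 13 with median-of-ratios scaling, 5 with separate fits and 2 to 9 with each library left out. The KMS-12-PE count of 21 was 13 with voom, 14 with median-of-ratios scaling and 17 to 21 with each library left out. The difference between KMS-12-BM and KMS-12-PE, called for 7 members, was called for 3 with median-of-ratios scaling, 4 with voom and 5 to 10 with each library left out. Core minus cap medians in KMS-12-BM ranged from -0.052 to 0.0022 with each library left out, the lowest without CTRL replicate 1. The sign turned for PSMB5 in KMS-12-PE (main value -0.0049), to 0.016 with median-of-ratios scaling, 0.040 with voom and between -0.049 and 0.032 with each library left out, and for PSMA1 in KMS-12-PE (0.0073), between -0.0075 and 0.023 with each library left out. The causes were not tested. Of 1294 alternative values for named genes 1254 kept their call and direction, 21 fell below the threshold, 11 passed it and 8 changed sign.

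Replicate numbers are shared between groups, but same-numbered libraries did not deviate together (correlations of -0.088 to 0.086) and the labels give no shared batch. With a replicate block 6 members were called lower in KMS-12-BM, 30 in MM1R, 31 in MM1S, 21 in KMS-12-PE and 31 on average, and the KMS-12 lines differed for 6.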
